A study of Mus musculus with 380 samples.

Results

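CD4 T cells from B16F10 melanomas were divided by whether Foxp3 RNA was detected, and the cells with it were set against the cells without it on the same plate. The series holds 4 plates of 94 single cells, of which 2 are CD4 plates. The cells were chosen by 2 measured values: at least 1000 genes above 1 FPKM (fragments per kilobase of transcript and per unit of library size), and the FPKM of Foxp3 itself. Foxp3 was above FPKM 1 in 69 CD4 cells, called Foxp3-detected here, and at or below FPKM 1 in the other 83, called Foxp3-undetected. The Foxp3-detected cells were 42 of 73 on the plate labelled Il27ra knockout (KO-labelled, mouse code KO4) and 27 of 79 on the wild-type (WT, mouse code WT4) plate, which left 31 and 52 Foxp3-undetected cells.

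B16F10 is a transplantable mouse melanoma line. The mice were C57BL/6, and the knockout label refers to a chain of the receptor for interleukin-27 (IL-27), the cytokine the series is about. Each CD4 plate held 94 single cells and 1 population well made from many cells, and the titles give 1 mouse code per genotype. The titles also carry p1 for the KO-labelled plate and p2 for the WT plate, with no account of what these stand for, and the protocol text mentions CD8+ cells although the titles say CD4. Genotype, mouse and plate therefore cannot be told apart, and no comparison is made here between the genotypes.

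Foxp3 encodes the transcription factor that defines regulatory T cells (Treg cells), the CD4 cells that restrain other immune cells. Treg cells depend on IL-2 made by other cells, which they bind through the high-affinity receptor chain CD25 (Il2ra), and they carry CTLA-4, which removes CD28 ligands from antigen-presenting cells. In tumours they are known for high levels of TNF receptor superfamily members such as OX40, GITR and 4-1BB. Conventional CD4 cells instead supply help, in part through CD40 ligand and IL-2.

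The level of Foxp3 in the chosen cells is a description, since it chose them. The median among Foxp3-detected cells was 809.4 FPKM on the KO-labelled plate, with a highest value of 1719, and 916.7 FPKM on the WT plate, with a highest value of 2128. Few cells lay near the threshold. Just inside it were cells at 1.13 and 13.8 FPKM on the KO-labelled plate and at 2.42 and 320.5 FPKM on the WT plate. Just outside it, 1 WT cell was at 0.06 FPKM, and the other 51 WT cells and all 31 KO-labelled cells were at 0. The shares of Foxp3-detected cells were 57.5% (exact Clopper-Pearson 95% interval 45.4 to 69.03) on the KO-labelled plate and 34.2% (23.9 to 45.7) on the WT plate. On the CD8 plates, sorted for cells that rarely express Foxp3, it was detected in 1 of 80 KO-labelled cells and in 0 of 72 WT cells, so that a WT share of up to 4.17% is allowed. All such intervals and limits cover counting error between cells only.

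The label was checked against 5 other Treg markers, Il2ra, Tnfrsf4, Tnfrsf18, Ctla4 and Folr4 (Izumo1r in current annotation, the folate receptor FR4 of Treg cells). At least 3 of the 5 were above FPKM 1 in 40 of 42 KO-labelled Foxp3-detected cells and 9 of 31 Foxp3-undetected cells. On the WT plate the same held in 27 of 27 Foxp3-detected cells and 10 of 52 Foxp3-undetected cells. All 5 were present in 19 of 42 Foxp3-detected cells and 1 of 31 Foxp3-undetected cells on the KO-labelled plate, and in 16 of 27 and 1 of 52 on the WT plate. The Foxp3-detected cells thus carried the markers of their label, and a minority of Foxp3-undetected cells carried 3 or more as well. These markers are not particular to Treg cells, since 14 of 79 KO-labelled and 24 of 72 WT CD8 cells without Foxp3 also had at least 3. A cell without Foxp3 RNA and a cell whose Foxp3 RNA was missed cannot be told apart in these values.

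**Figure D1:**
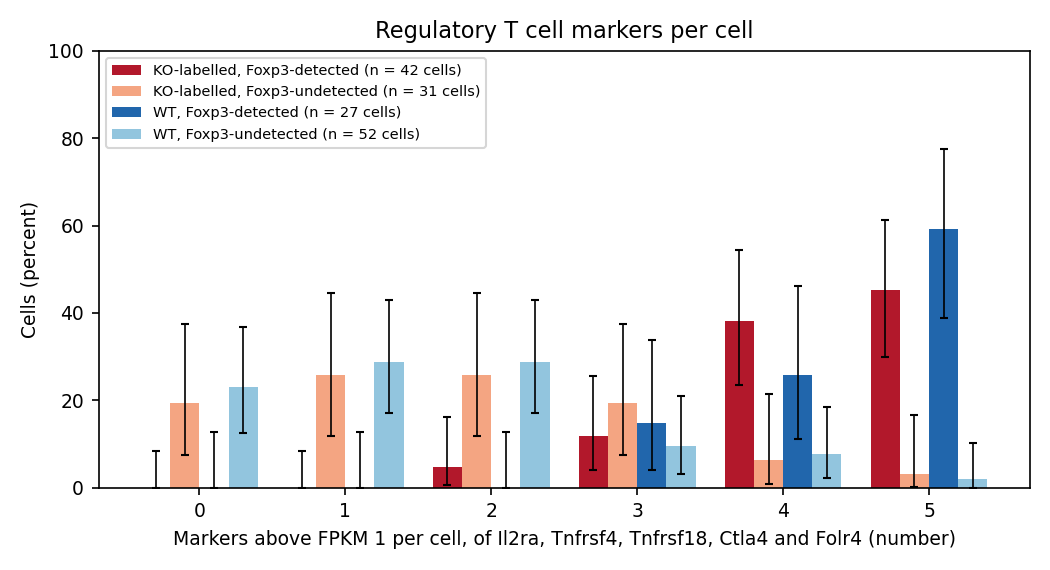
Number of the 5 Treg markers above FPKM 1 in each cell (horizontal axis) and the share of cells with that number (vertical axis, percent), for Foxp3-detected and Foxp3-undetected cells of each CD4 plate, with exact 95% intervals as error bars. Foxp3-detected cells lie at 2 to 5 markers on the KO-labelled plate and at 3 to 5 on the WT plate, while Foxp3-undetected cells spread from 0 to 5.

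Most cells of both sides carried T cell genes. A few cells, mainly Foxp3-undetected, carried markers of other cells, given below, and whether these cells also had Cd4 or Cd3e was not tested. The coreceptor gene Cd4 was found in 34 of 42 and 26 of 27 Foxp3-detected cells of the KO-labelled and WT plates, and in 28 of 31 and 45 of 52 Foxp3-undetected cells. Cd3e, a chain of the T cell receptor complex, was detected in 37 of 42 and 27 of 27 Foxp3-detected cells, against 27 of 31 and 47 of 52 Foxp3-undetected cells. Cd8a was above FPKM 1 in 1 and 2 Foxp3-detected cells and in 2 and 2 Foxp3-undetected cells of the KO-labelled and WT plates. Cd8b1, the other CD8 chain, was above FPKM 1 in 10 and 6 Foxp3-detected cells and in 11 and 18 Foxp3-undetected cells, and above FPKM 10 in 0 and 6 against 1 and 2. Without cells that had Cd8a, or Cd8b1 above FPKM 10, 6.06% of the genes were higher and 1.25% lower past the fold defined below, close to the 6.27% and 1.09% with them.

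The sides differed in the number of genes detected, and more so on the WT plate. The median cell had 2268 genes above FPKM 1 (range 1302 to 5961) in KO-labelled Foxp3-detected cells and 2123 (1802 to 4844) in Foxp3-undetected cells. On the WT plate Foxp3-detected cells had a median of 2404 (1547 to 6578) and Foxp3-undetected cells 1891 (1023 to 4090). A gene's difference below is its mean log2(FPKM + 1) over Foxp3-detected cells minus that over Foxp3-undetected cells of the same plate. Over all 5865 genes compared, the median difference was -0.04 on the KO-labelled plate and 0.70 on the WT plate. WT differences are therefore to be read against 0.70. Differences were also computed in cells matched on genes detected (24 cells a side on the KO-labelled plate and 18 a side on the WT plate), where those medians were -0.003 and -0.01 for the same plates.

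**Figure D2:**
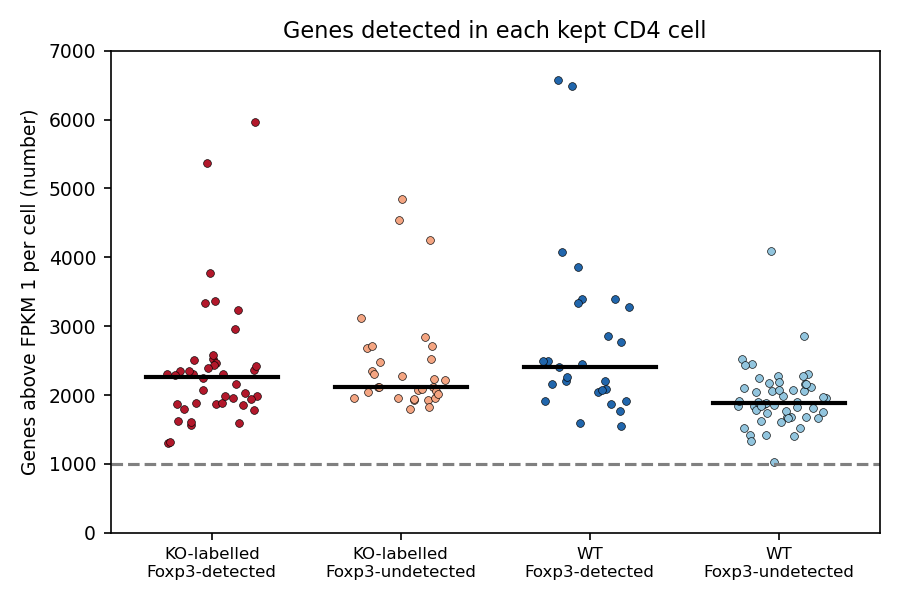
Each point is a kept CD4 cell, placed by its number of genes above FPKM 1 (vertical axis) and grouped by plate and Foxp3 detection. Black bars are medians, and the dashed line is the minimum of 1000 genes. The medians of Foxp3-detected and Foxp3-undetected cells are 2268 and 2123 on the KO-labelled plate and 2404 and 1891 on the WT plate.

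No test was run between the sides, because each plate is 1 sample and cells are not replicates. A gene is called past the fold when its difference was at least 1 log2 unit in the same direction on both plates. Of the 5865 genes, 6.27% were higher and 1.09% (64 genes) lower in Foxp3-detected cells by that rule, and 3.27% passed 1 log2 unit in opposite directions on the plates. On the KO-labelled plate alone 8.99% were higher and 10.9% lower, and on the WT plate alone 36.7% were higher and 2.35% lower. Higher genes made up 85.2% of the genes past the fold on both plates. With each plate's differences centred on its median gene, 4.11% of the genes were higher and 2.25% lower, so that 64.6% of those past the fold were higher. In the matched cells 5.07% of 5757 genes were higher and 3.32% lower, and 60.5% of those past the fold were higher. The 15 highest and 15 lowest genes, ranked by the smaller of their differences on the 2 plates, remained past the fold under both of these settings. The choice of scale mattered more. With 10 added to FPKM in place of 1, 33.2% of the higher and 34.4% of the lower genes were again past the fold. In matched cells 56.5% of the higher and 75% of the lower genes were again past the fold, but with the log2 ratio of mean FPKM + 1, which weighs cells with high levels more, 44.8% and 53.1% were. The genes named below that lost the call on that scale were Birc3, Cd3d, Cd3g, Cish, Dusp1, Emb, Gpr183, Icos, Ifi27l2a, Il2rb, Irf1, Irf4, Itga4, Itgb7, Lag3, Ltb, Maf, Nfkbia, Nr4a1, Pim1, Relb, Rps18 and Stat5a, and also Cd74.

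**Figure D3:**
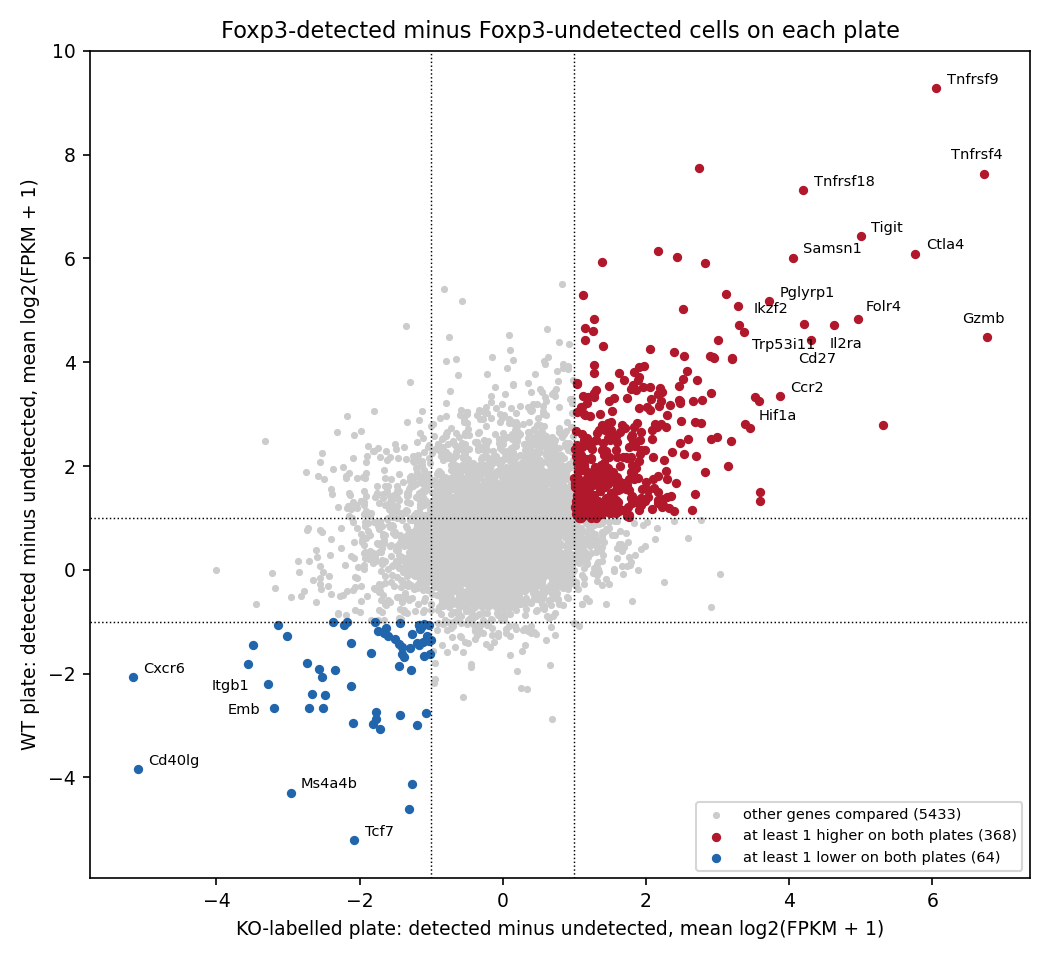
Difference in mean log2(FPKM + 1), Foxp3-detected minus Foxp3-undetected cells, on the KO-labelled plate (horizontal axis) and the WT plate (vertical axis) for the 5865 genes compared, without Foxp3. Dotted lines mark 1 log2 unit, and the labels give the 15 highest genes and 6 of the 15 lowest; by the smaller of the 2 differences, Tnfrsf4, Tnfrsf9 and Ctla4 lie farthest towards higher and Cd40lg farthest towards lower.

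Receptors of the TNF receptor superfamily stood among the largest differences of the 5865 genes. Tnfrsf4 encodes OX40, a co-stimulatory receptor (chromosome 4, 156013843 to 156016612, plus strand, GRCm38). Its median was 1806 FPKM in KO-labelled Foxp3-detected cells (lowest 0, highest 11578), against 0 in Foxp3-undetected cells (lowest 0, highest 4283). On the WT plate the median was 1911 FPKM (0 to 6000) in Foxp3-detected cells and 0 (0 to 2869) in Foxp3-undetected cells. The ranges overlapped, since some cells of each side had none and some Foxp3-undetected cells reached the levels of Foxp3-detected ones. Tnfrsf4 was detected in 35 of 42 and 25 of 27 Foxp3-detected cells, against 8 of 31 and 16 of 52 Foxp3-undetected cells of the KO-labelled and WT plates, and its differences were 6.73 and 7.63.

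Tnfrsf18, which encodes GITR, lies next to Tnfrsf4 on chromosome 4 (156026164 to 156028895, plus strand). It had a median of 2305 FPKM (0 to 7299) in KO-labelled Foxp3-detected cells and 504.3 FPKM (0 to 3047) in Foxp3-undetected cells. The WT medians were 2670 FPKM (highest 6681) in Foxp3-detected cells and 0 (highest 4189) in Foxp3-undetected cells. Unlike Tnfrsf4, it was detected in most KO-labelled Foxp3-undetected cells, at 21 of 31, and in 22 of 52 WT ones, against 41 of 42 and 27 of 27 Foxp3-detected cells. Its differences were 4.20 and 7.32. An annotated antisense gene, Gm16008, overlaps exons of Tnfrsf18, and the counting is not stated to use strand, so reads of the pair cannot be told apart.

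Tnfrsf9 encodes 4-1BB (CD137), a receptor induced on activated T cells (chromosome 4, 150914562 to 150946102, plus strand). Its median was 1310 FPKM (0 to 9492) in KO-labelled Foxp3-detected cells and 0 (0 to 4594) in Foxp3-undetected cells. On the WT plate the median was 2157 FPKM (0 to 9300) against 0 (0 to 3993). It was detected in 33 of 42 and 25 of 27 Foxp3-detected cells, but in only 7 of 31 and 7 of 52 Foxp3-undetected cells, with differences of 6.06 and 9.28. Tnfrsf4 and Tnfrsf9 were both present in 29 of 42 and 24 of 27 Foxp3-detected cells, against 4 of 31 and 4 of 52. How far these numbers follow from how often each gene was detected was not tested.

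Cd27 encodes the TNF receptor family member for CD70 and was also among the 15 highest genes, with differences of 4.31 and 4.43 and detection in 26 of 42 and 22 of 27 Foxp3-detected cells, against 6 of 31 and 16 of 52 Foxp3-undetected cells. Tnfrsf1b (TNF receptor 2), at 3.21 and 4.08, was also past the fold. Others of the family were not: Tnfrsf14, the receptor HVEM, had -0.34 and -0.25, and Tnfrsf25 had 0.89 and -0.53.

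The start regions of Tnfrsf18, Tnfrsf9 and Tnfrsf4 are shown because these genes lie on the same chromosome and had the largest WT differences of the Treg receptors. Each is 300 bases from RefSeq (GRCm38.p6), 250 before and 50 after a start, read 5′ to 3′; for Tnfrsf9, which has 2 entries, the second is shown because it holds more of the matches, and the first holds an NFAT match alone. Capitals mark matches to the letters searched on both strands: TTCNNNGAA (STAT), TGTTTAC (forkhead), GGNNTTTCC (NF-kB), TGANTCA (AP-1) and GGAAAA (NFAT).
Tnfrsf18 (chr4:156026072-156026371, plus strand): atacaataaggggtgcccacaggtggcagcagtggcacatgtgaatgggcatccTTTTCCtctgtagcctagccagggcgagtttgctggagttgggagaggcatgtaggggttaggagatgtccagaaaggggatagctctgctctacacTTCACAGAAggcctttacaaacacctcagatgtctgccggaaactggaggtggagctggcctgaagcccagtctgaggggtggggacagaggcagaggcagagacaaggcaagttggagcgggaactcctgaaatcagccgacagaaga
Tnfrsf9 (chr4:150927749-150928048, plus strand): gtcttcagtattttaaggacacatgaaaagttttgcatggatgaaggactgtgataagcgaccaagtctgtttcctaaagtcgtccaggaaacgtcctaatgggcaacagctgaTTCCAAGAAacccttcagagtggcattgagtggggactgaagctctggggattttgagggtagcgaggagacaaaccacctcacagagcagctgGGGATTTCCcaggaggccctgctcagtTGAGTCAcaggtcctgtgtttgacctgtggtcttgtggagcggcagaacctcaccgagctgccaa
Tnfrsf4 (chr4:156013445-156013744, plus strand): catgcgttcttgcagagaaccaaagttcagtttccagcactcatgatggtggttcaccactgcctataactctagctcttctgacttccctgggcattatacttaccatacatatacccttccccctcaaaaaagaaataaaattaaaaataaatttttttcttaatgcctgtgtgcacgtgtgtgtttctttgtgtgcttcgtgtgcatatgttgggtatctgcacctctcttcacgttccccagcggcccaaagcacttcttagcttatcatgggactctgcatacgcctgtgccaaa
The Tnfrsf18 window holds a STAT match, TTCACAGAA, and an NFAT match on the other strand. The Tnfrsf9 window holds a STAT match, TTCCAAGAA, an NF-kB match, GGGATTTCC, and an AP-1 match, TGAGTCA, and the Tnfrsf4 window holds no match. The STAT letters were in 41 of the higher genes with an entry, or 14.2%, against 1.85% of the 54 lower genes with an entry, 8.41% of the 4695 compared genes with an entry and 9.55% of all 27025 genes with one. The NF-kB letters were in 9.72% of higher genes, 18.5% of lower genes, 7.58% of compared genes and 6.62% of all. With a further G in front the NF-kB shares were 4.17%, 0%, 2.24% and 1.89%, so the order of higher and lower genes depended on that letter. The forkhead letters were in 4.17%, 1.85%, 3.17% and 4.05% of the same sets, the AP-1 letters in 7.29%, 3.70%, 6.26% and 8.97%, and the NFAT letters in 26.7%, 16.7%, 25.5% and 26.1%. A match describes these letters in this window and is not evidence that a factor binds there.

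Among the other receptors of Treg cells, Il2ra, the IL-2 receptor chain CD25, was detected in few WT Foxp3-undetected cells. Its median was 182.6 FPKM (0 to 866.3) in KO-labelled Foxp3-detected cells and 0 (0 to 357.2) in Foxp3-undetected cells. The WT median was 59.7 FPKM (0 to 385.8) in Foxp3-detected cells and 0 (0 to 787.5) in Foxp3-undetected cells. It was detected in 38 of 42 and 22 of 27 Foxp3-detected cells, against 11 of 31 and 3 of 52 Foxp3-undetected cells, with differences of 4.62 and 4.71. Ctla4 (chromosome 1, 60887000 to 60915832, plus strand) had medians of 1742 FPKM in KO-labelled and 1741 FPKM in WT Foxp3-detected cells, against 0 and 0.91 FPKM in Foxp3-undetected cells. CTLA-4 RNA was not limited to the Foxp3-detected side: it was above FPKM 1 in 12 of 31 and 26 of 52 Foxp3-undetected cells, against 37 of 42 and 26 of 27 Foxp3-detected cells, and its differences were 5.76 and 6.09.

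Folr4 was detected in 27 of 42 and 20 of 27 Foxp3-detected cells and in 3 of 31 and 14 of 52 Foxp3-undetected cells, with differences of 4.96 and 4.83. Lrrc32, which encodes GARP, the surface anchor of latent TGF-beta on Treg cells, was rare in Foxp3-undetected cells: it was above FPKM 1 in 22 of 42 and 14 of 27 Foxp3-detected cells, against 1 of 31 and 1 of 52. Its differences were 3.59 and 3.26. Itgae, the integrin chain CD103 of tissue T cells, was detected in 17 of 42 and 11 of 27 Foxp3-detected cells, against 2 of 31 and 2 of 52. Klrg1, a receptor of differentiated effector cells and effector Treg cells, was detected in 17 of 42 and 18 of 27 Foxp3-detected cells, against 4 of 31, and was listed at 0 in all 52 WT Foxp3-undetected cells. Of the 20 receptors listed for Treg cells, 19 passed the filter on low values (detection in at least 20% of the cells of 1 of the 4 plate-by-side groups) and 15 were past the fold, all higher, beside 6.27% of all genes compared. The medians of the 19 were 2.83 and 4.08. Nrp1, often used to mark Treg cells of thymic origin, was not among them, at 0.20 and -0.14, nor was Il2rg, the IL-2 receptor chain shared with other cytokine receptors, at 0.21 and 1.28. The list holds the 5 markers above and a gene can pass the filter through the side where it is high, so the count describes the cells and supports nothing further. The limit set by the filter holds for every list count below.

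**Figure D4:**
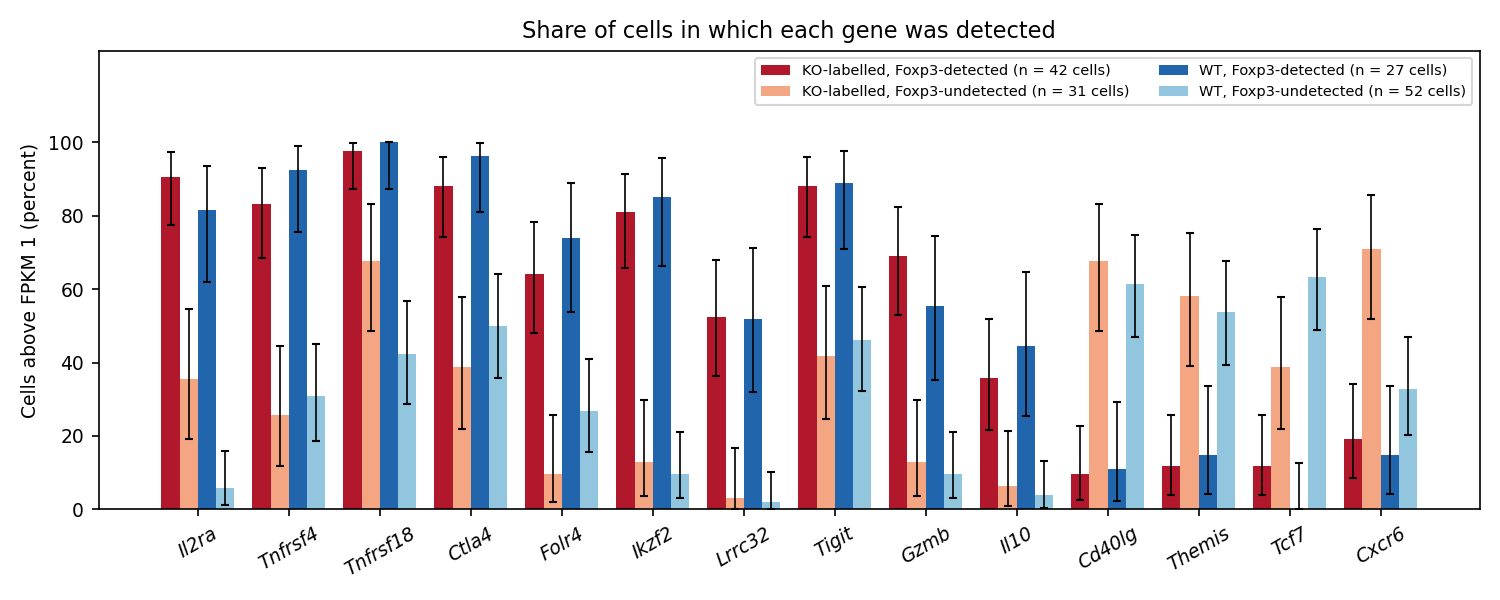
Share of cells above FPKM 1 (vertical axis, percent) for 14 genes in Foxp3-detected and Foxp3-undetected cells of each CD4 plate, with exact 95% intervals as error bars. The first 10 genes were detected more often in Foxp3-detected cells of both plates and the last 4, Cd40lg, Themis, Tcf7 and Cxcr6, more often in Foxp3-undetected cells.

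The median over transcription factors was smaller than that over the receptors, and Ikzf2 had the largest difference among them on both plates. Ikzf2 encodes Helios, a zinc finger partner of Foxp3 in Treg cells. Its median was 58.1 FPKM (0 to 308.2) in KO-labelled Foxp3-detected cells and 53.3 FPKM (0 to 450.9) in WT ones, against 0 in Foxp3-undetected cells of both plates (highest 102.1 and 229.7). It was detected in 34 of 42 and 23 of 27 Foxp3-detected cells and in 4 of 31 and 5 of 52 Foxp3-undetected cells, with differences of 4.20 and 4.74. Of 22 factors and partners listed, 20 passed the filter, 7 were higher past the fold and 0 lower, beside 6.27% and 1.09% of all genes compared, with medians of 0.63 and 1.70. The other 6 were Ikzf4 (Eos) at 2.08 and 2.52, Maf at 2.29 and 2.99, Irf4 at 1.26 and 1.63, Batf at 1.13 and 2.02, Relb at 1.41 and 2.06, and Stat5a at 1.02 and 1.79. In matched cells the call ended for Irf4 (0.14 and 1.35) and Stat5a (0.58 and 0.46). Irf4, Batf and Maf are factors of effector T cells and effector Treg cells. Gata3, a factor of type 2 helper cells that tissue Treg cells also use, differed between plates, at -0.01 and 3.20, and Satb1, a chromatin organizer lower in Treg cells in textbook accounts, was at -0.38 and -1.18.

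Of 14 mediators linked to suppression, 11 passed the filter and 8 were past the fold, all higher, beside 6.27% of all genes compared, with medians of 1.83 and 3.17. Gzmb, Il10, Ebi3 and Areg passed the filter only through Foxp3-detected cells, so this count too describes the cells and supports nothing further. Gzmb, the protease granzyme B, had a median of 1151 FPKM (0 to 14817) in KO-labelled Foxp3-detected cells and 0 (0 to 643.4) in Foxp3-undetected cells. On the WT plate the median was 51.5 FPKM (0 to 21682) against 0 (0 to 1941). It was present in 29 of 42 and 15 of 27 Foxp3-detected cells and 4 of 31 and 5 of 52 Foxp3-undetected cells, with differences of 6.77 and 4.48. Il10, the inhibitory cytokine interleukin-10, was detected in 15 of 42 and 12 of 27 Foxp3-detected cells, against 2 of 31 and 2 of 52, at differences of 2.34 and 3.17. Ebi3, a subunit that IL-27 and IL-35 share, was detected in 9 of 42 and 9 of 27 Foxp3-detected cells, against 0 of 31 (limit 9.68%) and 1 of 52, and its differences of 1.83 and 2.47 were 0.69 and 1.07 in matched cells, which ended the call. Areg, the tissue repair factor amphiregulin, had 3.19 and 2.49 and was detected in 16 of 42 and 8 of 27 Foxp3-detected cells, against 3 of 31 and 0 of 52. The mediators Lgals3 (-2.02 and 0.05) and Fgl2 (-0.82 and 5.41) did not go one way on both plates.

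Genes of the IL-2 and NF-kB pathways were higher in part. The counts of both lists are to be read beside 6.27% of all genes compared higher and 1.09% lower. Of 15 genes of the IL-2 and STAT5 response, 13 passed the filter, 6 were higher and 1 lower. Besides the receptor chains Il2ra and Il2rb, the higher ones were Cish (2.48 and 3.25), a feedback inhibitor, Gadd45b (2.44 and 6.03), Pim1 (1.99 and 1.33) and Socs2 (1.07 and 2.36). The lower one, Bcl2, which protects T cells from apoptosis, was at 0 in all 27 WT Foxp3-detected cells and above FPKM 1 in 4 of 42 KO-labelled ones, against 13 of 31 KO-labelled and 14 of 52 WT Foxp3-undetected cells. Of 15 NF-kB subunits and feedback genes, 14 passed the filter and 8 were higher, among them Traf1 (2.94 and 4.11), an adaptor of TNF receptors, Birc3 (1.88 and 1.28) and Nfkbia (1.12 and 5.29), the inhibitor of NF-kB, with 0 lower. In matched cells 6 were higher, and Birc3 (2.20 and 0.25) and Nfkbia (0.63 and 4.32) lost the call, while Pim1 lost it with centring (2.03 and 0.63). With the log2 ratio of mean FPKM + 1, only Traf1 (1.85 and 1.73) and Nfkbie (1.18 and 1.58) of the 8 NF-kB genes kept the call. The medians were 1.03 and 1.33 for the IL-2 list and 1.18 and 1.43 for the NF-kB list.

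Co-inhibitory receptors were mostly higher in Foxp3-detected cells. Of 16 listed, 13 passed the filter, 8 were higher and 1 lower, beside 6.27% and 1.09% of all genes compared. Tigit, Ctla4, Entpd1 and Klrg1 among the higher ones also belong to the Treg receptor list, so the 2 counts are not separate results. Tigit, a receptor for nectin ligands, had a median of 686.4 FPKM (0 to 6440) in KO-labelled and 912.3 FPKM (0 to 7735) in WT Foxp3-detected cells, against 0 (highest 3151 and 4833) in Foxp3-undetected cells. Its differences were 5.00 and 6.44. Cd96, a receptor that binds a ligand of TIGIT, went the other way at -3.15 and -1.06, and was detected in 4 of 42 and 5 of 27 Foxp3-detected cells, against 13 of 31 and 15 of 52. Cd226, the activating receptor for the same ligands, had -1.69 and -0.82, which is not past the fold on the WT plate, but was -1.12 and -1.57 in matched cells and -1.64 and -1.52 when centred, past the fold in both. With the log2 ratio of mean FPKM + 1 it was -0.84 and -1.22, not past the fold on the KO-labelled plate. Havcr2 (TIM-3), at 1.81 and 2.02, and Lag3, at 2.05 and 3.08, were past the fold, and Pdcd1 (PD-1), at 0.84 and 3.88, was not. For Lag3 the result depends on the scale on the KO-labelled plate: its mean was 358.3 FPKM in Foxp3-detected and 493.0 FPKM in Foxp3-undetected cells, of which 1 had 10308 FPKM, although 15 of 42 and 5 of 31 cells had it. Of 14 co-stimulatory receptors, 13 passed the filter and 6 were higher, beside the same 6.27%. They were the 4 TNF receptors above with Icos (2.65 and 1.16, and 2.69 and 0.46 when centred) and Cd2 (3.21 and 4.07), while Cd28 was at 0.09 and -1.08.

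Genes of conventional helper cells were seldom detected on either side, which limits this comparison: 10 of 25 passed the filter. Cd40lg, the ligand by which helper cells activate B cells and dendritic cells (chromosome X, 57212143 to 57224042, plus strand), had the largest of the lower differences by the ranking above. Its median was 0 in Foxp3-detected cells of both plates (highest 287.3 FPKM KO-labelled and 157.3 FPKM WT), against 152.1 FPKM (highest 1117) in KO-labelled and 20.9 FPKM (highest 1507) in WT Foxp3-undetected cells. It was detected in 4 of 42 and 3 of 27 Foxp3-detected cells, against 21 of 31 and 32 of 52, with differences of -5.10 and -3.84. All 4 KO-labelled and all 3 WT Foxp3-detected cells with Cd40lg also had Il2ra, as did most cells of that side, against 6 of the 21 and 1 of the 32 Foxp3-undetected cells with Cd40lg. Il18rap, a chain of the IL-18 receptor, was the other lower gene of the list at -2.18 and -1.01 (-1.75 and -0.26 in matched cells, which ended the call), and Ltb, the cytokine lymphotoxin beta, was higher at 3.46 and 2.74. Il2 was detected in 0 of 42 and 0 of 27 Foxp3-detected cells (limits 7.14% and 11.1%), against 2 of 31 and 4 of 52 Foxp3-undetected cells. Ifng, the type 1 helper cytokine, was detected in 0 of 42 and 3 of 27 Foxp3-detected cells, against 6 of 31 and 8 of 52.

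Among 18 naive and memory genes, 14 passed the filter, 3 were lower and 2 higher, beside 1.09% and 6.27% of all genes compared. Tcf7, which encodes TCF-1, a factor of naive and stem-like memory T cells (chromosome 11, 52252371 to 52283014, minus strand), was listed at 0 in all 27 WT Foxp3-detected cells and detected in 5 of 42 KO-labelled ones. In Foxp3-undetected cells it was detected in 12 of 31 KO-labelled cells (median 0, highest 810.7 FPKM) and 33 of 52 WT cells (median 139.6 FPKM, highest 2113). Its differences were -2.07 and -5.21. S1pr1, the receptor by which T cells leave tissue, was lower at -1.82 and -2.98, and Bcl2, given above, was the third. Cd27, given above, was among the higher ones, so that the list did not go one way. Il7r, the interleukin-7 receptor chain that resting Treg cells carry at low levels, had -0.30 and 0.15 and was detected in 30 of 42 and 16 of 27 Foxp3-detected cells, against 23 of 31 and 32 of 52.

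Receptors of migration also went in both directions, with 15 of 20 passing the filter, 3 higher and 5 lower, beside 6.27% and 1.09% of all genes compared. Ccr2, a receptor for monocyte chemoattractant chemokines, had a median of 419.0 FPKM (0 to 1989) in KO-labelled and 260.8 FPKM (0 to 2633) in WT Foxp3-detected cells, against 1.25 FPKM (0 to 1478) and 0.41 FPKM (0 to 978.9) in Foxp3-undetected cells. Its differences were 3.87 and 3.34. The integrin chain Itgb7 (1.96 and 3.53) was also among the higher ones. Cxcr6, the receptor for CXCL16 on tissue-resident and effector T cells, was lower at -5.16 and -2.06 and was detected in 8 of 42 and 4 of 27 Foxp3-detected cells, against 22 of 31 and 17 of 52. The integrin chains Itgb1 (-3.28 and -2.19) and Itga4 (-1.38 and -1.68), which pair as VLA-4, were lower, as were S1pr1 and Gpr183 (-2.22 and -1.07), an oxysterol receptor that positions lymphocytes. Ccr8, a chemokine receptor known from tumour Treg cells, was detected in 17 of 42 Foxp3-detected against 10 of 31 Foxp3-undetected KO-labelled cells, a difference of 0.83, and in 18 of 27 against 5 of 52 WT cells, a difference of 5.50. Its mean on the KO-labelled plate was 389.4 FPKM in Foxp3-detected and 495.4 FPKM in Foxp3-undetected cells, so the direction there depended on the scale.

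Genes of cytotoxic cells other than Gzmb that passed the filter were lower or mixed. Of 19 listed, 8 passed the filter, and of these Gzmb was higher and Fasl, the death ligand, lower at -2.52 and -2.06, beside 6.27% and 1.09% of all genes compared. Nkg7, a granule protein, was at -2.87 and 0.18, and Klrk1, which encodes NKG2D, at -3.44 and -0.65. In matched cells both were past the fold, Nkg7 at -3.18 and -1.86 and Klrk1 at -3.35 and -1.32. With the log2 ratio of mean FPKM + 1, Klrk1 was lower on both plates, at -7.86 and -4.87. Nkg7 was at -1.28 and 1.21 on that scale, in opposite directions, so its WT direction depended on the setting. Prf1, the pore-forming protein perforin, was too rarely detected to pass the filter but had 1.11 and 1.27, with detection in 14.3% and 14.8% of Foxp3-detected cells, against 3.23% and 0%. The medians were -2.32 and 0.22, and in the matched cells -2.18 and -1.26.

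The remaining lower genes among the 15 were Ms4a4b, a membrane protein of T cells, at -2.97 and -4.29; Emb, which encodes embigin, at -3.20 and -2.66; Themis, which sets T cell receptor signalling thresholds in thymocytes, at -2.70 and -2.65; the antiproliferative gene Btg2 at -2.48 and -2.41; Arid5a, which stabilizes cytokine mRNAs, at -2.67 and -2.40; Fam102a at -2.09 and -2.95; and Rps18, Gm12505 and Wdr92. Gm12505, a lincRNA, had a median of 9.59 FPKM in KO-labelled and 10.4 FPKM in WT Foxp3-detected cells, against 75.6 and 59.3 FPKM in Foxp3-undetected cells, of which 31 of 31 and 50 of 52 had it. Wdr92 showed much the same levels, with medians of 14.2 and 15.1 FPKM against 61.7 and 63.1 FPKM, and its exons overlap those of Ppp3r1 on the same strand and Pno1 on the other, so its reads are uncertain. The remaining higher genes among the 15 were Samsn1, an adaptor that restrains lymphocyte activation, at 4.06 and 6.01; Pglyrp1, a peptidoglycan recognition protein, at 3.72 and 5.17; Trp53i11 at 3.37 and 4.57; and Hif1a, the oxygen-regulated transcription factor, at 3.52 and 3.32. Annotated genes overlap exons of Ikzf2, Cd27, Hif1a, Emb, Themis, Bcl2 and Rps18 as well.

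Metabolic and interferon genes were higher in part, with larger medians on the WT plate, where the median of all genes was also higher. The counts of both lists are to be read beside 6.27% of all genes compared. Of 20 glycolysis and hypoxia genes, 18 passed the filter and 6 were higher past the fold, among them Hif1a, the glucose transporter Slc2a3 (1.48 and 3.25) and the lactate transporter Slc16a3 (1.15 and 4.43), with medians of 0.58 and 2.23. Of 28 interferon-stimulated genes, 23 passed and 10 were higher, with medians of 0.53 and 1.62. Among these were Ifi27l2a (5.31 and 2.78), Gbp3 (2.78 and 3.28), Igtp (2.39 and 4.19), Irf1 (2.06 and 4.25) and Isg20 (2.65 and 3.26). Classical antiviral genes of the same list were not past the fold, such as Ifit1 at 0.11 and 0.33 and Isg15 at -0.82 and 0.47. In matched cells 9 glycolysis genes and 8 interferon-stimulated genes were higher past the fold, beside 5.07% of all genes there.

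Activation and signalling genes showed no common direction, and those past the fold are to be read beside 6.27% of all genes higher and 1.09% lower. Of 18 T cell receptor signalling genes, all of which passed the filter, Cd3d (1.43 and 1.59) and Cd3g (1.37 and 2.03) were higher and Themis lower, with medians of -0.18 and 0.66. In matched cells Cd3d was at 1.04 and -1.10, so its WT direction turned. Of 24 immediate-early genes, 19 passed, Nr4a1 (1.29 and 1.71) and Dusp1 (1.26 and 4.59) were higher and Btg2 lower, with medians of -0.21 and -0.49, and Nr4a1 lost the call in matched cells, at 0.36 and 1.76. Of 12 heat shock genes, 9 passed and 0 were past the fold either way, with medians of -0.20 and 0.49. In the matched cells the medians were -0.29 and -0.64 for T cell receptor signalling and 0.16 and -0.88 for heat shock genes, so both WT medians and the KO-labelled heat shock median changed sign.

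Most cells of both sides were not cycling, and the share of cycling cells was largest among WT Foxp3-detected cells. The cell cycle medians of the plates differed in sign. At least 10 of 30 cell cycle genes were found in 5 of 42 and 6 of 27 Foxp3-detected cells of the KO-labelled and WT plates, against 3 of 31 and 0 of 52 Foxp3-undetected cells (limit 5.77%). Of these genes, 20 passed the filter, and the medians were -0.30 and 1.70. Mki67, the proliferation marker, was at 0.54 and 1.64 and Top2a at -0.30 and 1.88, and only the replication helicase gene Mcm6 was past the fold, at 1.40 and 2.44. In matched cells the medians were -0.14 and 0.29, and Top2a was at -0.16 and -0.04. With those cycling cells left out, 4.98% of the genes were higher and 2.22% lower past the fold.

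More ribosomal protein genes were lower than higher in Foxp3-detected cells. This list was added after the values were seen. Of 79 genes, 75 passed the filter, 13 were lower past the fold and 0 higher, beside 1.09% of all genes lower, with medians of -1.15 and -0.28. In matched cells 28 were lower, beside 3.32% of all genes, with medians of -1.01 and -1.47. With all single cells, including those under 1000 genes, the median over both plates turned to 1.88, against -0.66 in the kept cells. Rps18, one of the 15 lowest genes, had a median of 790.8 FPKM in KO-labelled and 777.6 FPKM in WT Foxp3-detected cells, against 1160 and 1229 FPKM in Foxp3-undetected cells, with differences of -2.57 and -1.92, and it was detected in 33 of 42 and 21 of 27 cells, against 31 of 31 and 48 of 52. The mean FPKM of Rps18 differed less, at 1127 and 1152 against 1431 and 1318. Ribosomal genes can share reads with pseudogene copies, and whether RNA quality or cell size moved with them was not tested.

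**Figure D5:**
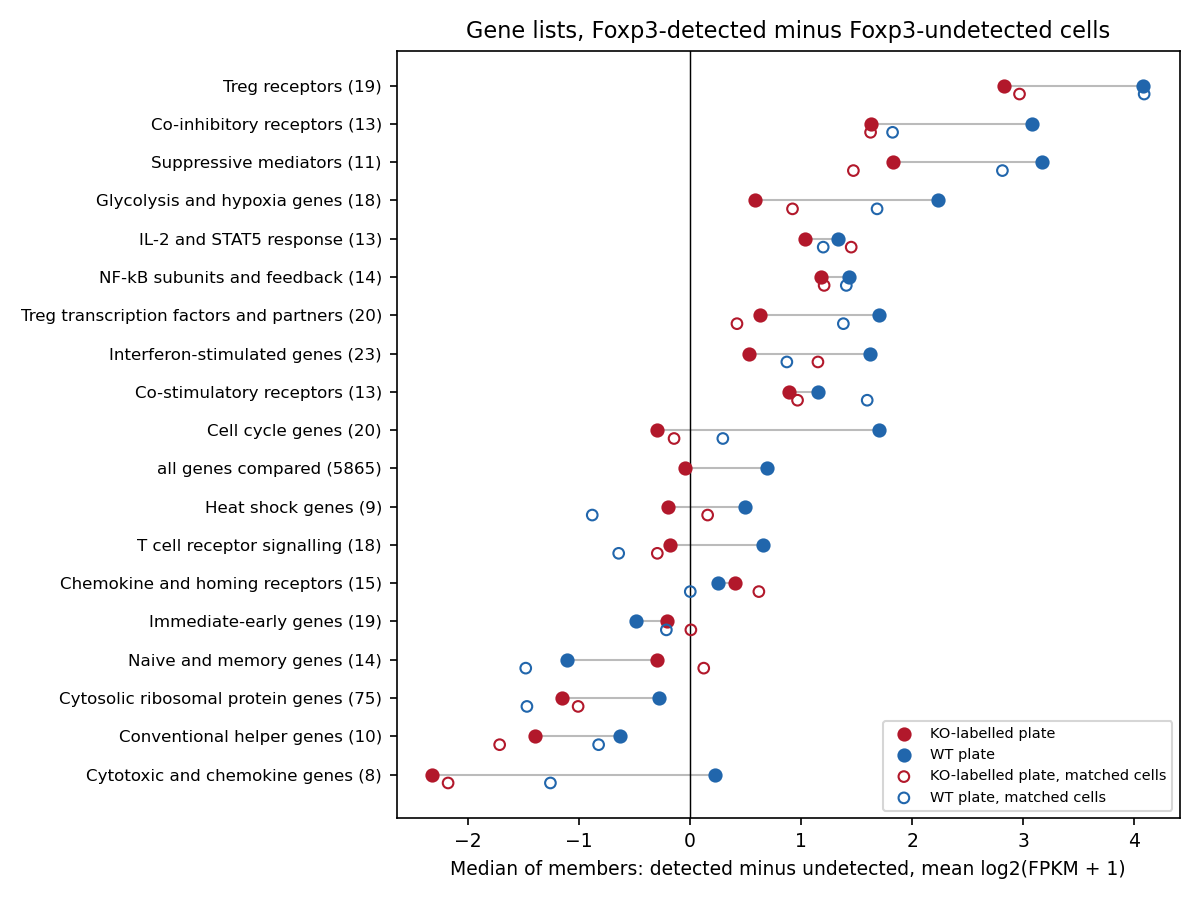
Median difference in mean log2(FPKM + 1), Foxp3-detected minus Foxp3-undetected cells (horizontal axis), of the members of each gene list that passed the filter (number in brackets), on the KO-labelled and WT plates; filled points use all kept cells and open points cells matched on genes detected. Treg receptors are highest on both plates at 2.83 and 4.08, and the median of all genes is -0.04 and 0.70.

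Markers of other cells were concentrated in a few Foxp3-undetected cells. At least 3 of 10 macrophage and monocyte markers were detected in 0 of 42 and 0 of 27 Foxp3-detected cells, against 3 of 31 and 2 of 52 Foxp3-undetected cells, and the summed level reached 434.1 and 612.5 FPKM, against 41810 and 92736 FPKM. At least 3 of 10 dendritic cell markers were detected in 1 of 42 and 0 of 27, against 4 of 31 and 2 of 52, with summed levels of up to 932.0 and 1040 FPKM, against 104315 and 131452 FPKM. The class II gene H2-Aa was at 0 in all KO-labelled Foxp3-detected cells and at most 257.6 FPKM in WT ones, and reached 38406 and 46109 FPKM in Foxp3-undetected cells. Csf1r, Cd68 and Cd14 were in none of the Foxp3-detected cells, and the dendritic cell genes Flt3 and Clec9a in no cell of either side. For Cd74, the class II invariant chain, the direction depended on the scale. It was detected in 21 of 42 and 15 of 27 Foxp3-detected cells, against 5 of 31 and 4 of 52, with differences of 1.80 and 3.48, while its mean FPKM was 114.8 and 189.2, against 915.4 and 612.2. At least 3 markers of B cells, NK cells, neutrophils, fibroblasts or endothelium, or erythroid cells were found in 0 cells of either side, and of melanoma cells in 1 Foxp3-detected and 1 Foxp3-undetected KO-labelled cell. The melanocyte gene Tyr was above FPKM 1 in all cells but 1 WT Foxp3-undetected cell, at medians of 7.09 to 8.50 FPKM in the 4 groups. With all cells holding 3 markers of another type left out, 7.98% of the genes were higher and 0.898% lower past the fold.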

How the data were processed

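Single CD4 and CD8 T cells were profiled by Smart-seq2, per the labels' protocols. The deposited values are FPKM per gene symbol, normalized by the authors with TMM factors, per the labels. The submitters' processing notes name RSEM, Bowtie and mm10 without versions. FPKM carries no read number, and none was estimated here, so depth is given as genes above FPKM 1 per cell. The 23420 symbols of the file were matched by name to GRCm38 gene annotation, where 22981 had 1 gene. All columns matched a label, and 0 pairs of CD4 columns were identical.

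Cells needed 1000 genes above FPKM 1. Genes needed detection, above FPKM 1, in 20% of the cells of 1 of the 4 plate-by-side groups. Per plate, mean log2(FPKM + 1), with a pseudocount of 1, was subtracted between sides, and 1 log2 unit, 2-fold on that scale, counted as past the fold. No test was run and no p-value derived: each plate is 1 sample, cells are not replicates, and the direction on both plates is part of the rule. Foxp3 stayed out of all results. The difference mixes how many cells have a gene with how much they have, so it is not the fold of mean FPKM. Doublets were not called; cells were plated singly.

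Named genes were the 15 highest and 15 lowest by the smaller of the 2 absolute differences, and list members as examples; some list members are counted but not reported by name here. The promoter letters for NF-kB were shortened, from the form with a further G in front, after the shares were seen. The members, the 17 gene lists and the 9 lists of other cell markers were chosen with earlier results of these data known; a ribosomal list and the leaving out of cells above 4000 genes, or with Cd8b1 above FPKM 10, were added after the values were seen. Other settings changed the pseudocount, scaling, centring, filters and cells used, matched cells within 5% in genes detected, or left out a plate. The steps were checked on the real CD4 cells, with sides drawn at random and large changes put into commonly detected genes. That check did not cover changes near the fold or rarely detected genes. Shares carry exact Clopper-Pearson 95% intervals, and a share of 0 the limit that 3 cells set. The population wells mix both sides and were not used for them. Versions were Python 3.11.15, pandas 2.3.3, numpy 2.4.6, scipy 1.17.1 and matplotlib 3.10.9.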

Additional observations from a re-analysis of the deposited data

Results flagged for a closer look

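Some lists and genes had differences of opposite sign on the 2 plates. These gaps between plates were not tested, since each plate is 1 sample, and Foxp3-detected cells had more genes detected on the WT plate, where the median of all genes was 0.70; its part in these results was not tested beyond the matched cells. The median of the cytotoxic and chemokine list was -2.32 on the KO-labelled plate and 0.22 on the WT plate. That of the T cell receptor signalling list was -0.18 and 0.66, that of the heat shock list -0.20 and 0.49, and that of the cell cycle list -0.30 and 1.70. In cells matched on genes detected the 4 medians were -2.18 and -1.26, -0.29 and -0.64, 0.16 and -0.88, and -0.14 and 0.29, so that the plates had the same sign for the cytotoxic and T cell receptor lists.

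Among members of the lists, 5 genes (1.62%) passed 1 log2 unit in opposite directions, a smaller share than the 3.27% of all genes compared, so their number is no result about the lists. Id2, which encodes an inhibitor of DNA binding, had -2.10 on the KO-labelled plate and 2.16 on the WT plate, but -1.69 and -1.19 in matched cells, lower on both. Its signs stayed opposite when centred (-2.05 and 1.46) and with the log2 ratio of mean FPKM + 1 (-0.93 and 0.49). The chemokine gene Ccl5 had -1.08 and 1.58, and it was above FPKM 1 in 11 of 42 and 16 of 27 Foxp3-detected cells, against 11 of 31 and 18 of 52 Foxp3-undetected cells. Cd69, an early activation marker that retains T cells in tissue, had -1.65 and 1.26, and -2.40 and 0.17 in matched cells. The egress receptor gene S1pr4 had -1.47 and 1.52, and the AP-1 gene Jun had 1.06 and -1.08.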

How the results depend on the processing

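Each difference was taken within a plate, which pairs the sides by plate and mouse. No paired analysis was possible because the results come from no test and the cells of the sides share no numbers. Of 18 other settings, 14 could undo a call. None of the 14 moved any of the 15 named higher genes out of the fold, and the 15 named lower genes also remained past it except with all single cells (6 of 15) and with the log2 ratio of mean FPKM + 1 (13 of 15). The shares of genes higher and lower past the fold, 6.27% and 1.09%, were 11.5% and 1.88% at a pseudocount of 0.1, 2.08% and 0.375% at 10, 4.11% and 2.25% centred, 9.04% and 1.17% in cells with 2000 genes, 25.5% and 0.163% with all single cells, 5.07% and 3.32% in matched cells, 4.98% and 2.22% without cycling cells, and 6.89% and 2.61% with the ratio of means, which kept 44.8% of the higher and 53.1% of the lower genes. With 1 plate left out they ranged from 8.99% to 36.7% and from 2.35% to 10.9%. The Treg receptor median over both plates, 3.64, was 5.05 and 2.41 at the 2 pseudocounts and 2.49 with the ratio of means, and ranged from 2.83 to 4.08 with 1 plate left out. The Foxp3-detected share was 44.7% of all KO-labelled single cells and 51.2% of WT cells with 2000 genes. List medians over both plates that reversed were as follows. T cell receptor signalling (0.13) was -0.00568 with the ratio of means, -0.0462 with cells rescaled to 1 sum, -0.20 centred, -0.19 matched, -0.0178 without cycling cells and -0.10 without cells with Cd8a or with Cd8b1 above FPKM 10. Heat shock (0.16) was -0.17 centred, -0.35 matched, -0.22 without cycling cells and -0.0317 without cells above 4000 genes. Chemokine and homing receptors (0.10) were -0.0671 rescaled and -0.22 centred, and cell cycle genes (0.69) -0.0586 matched and -0.0308 without cycling cells. With all single cells, which added only Foxp3-undetected cells, cytotoxic genes (-1.14) were 0.11, immediate-early genes (-0.20) 1.16, ribosomal genes (-0.66) 1.88, Btg2 (-2.45) 0.0405 and Rps18 (-2.24) 0.60. With 1 plate left out the medians ranged from -0.18 to 0.66 for T cell receptor signalling, -0.20 to 0.49 for heat shock, -0.30 to 1.70 for cell cycle and -2.32 to 0.22 for cytotoxic genes. Of the higher and lower genes, 99.7% and 14.1% were again past the fold with all single cells, and 33.2% and 34.4% at a pseudocount of 10. The cause of these shifts was not tested. The lack of a read number, and 1 plate per genotype, limit every value above.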
